A study of Rattus norvegicus with 3 samples.

Results

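Clustered Seh1 peaks of rat oligodendrocyte progenitor cells (OPC) were described: peaks with at least 2 other OPC peaks whose centres lay within 50 kb of their own centre on the same chromosome. Peaks that the authors' deposited annotation places in a repeat were left out before neighbours were counted, and chromosomes 1 to 20 and X were used. Of 9117 OPC peaks, 9076 lay on these chromosomes, 3012 were left out as repeats and 6064 were retained, of which 842 (13.9%) were clustered. Measured positions chose these 842 peaks, so their number and spacing are a description and were not tested.

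Seh1 was mapped by ChIP-seq, in which DNA bound by a protein is pulled down with an antibody and sequenced. Forebrains of Sprague Dawley rats at postnatal day 1 to 2 gave the cells, and 1 Seh1 library was made per stage. OPC were kept with the growth factors PDGF-AA, CNTF, bFGF and NT3, and immature oligodendrocytes (iOL) had 1 day of triiodothyronine (T3) at 60 nM, with PDGF-AA, bFGF and NT3 withdrawn. An IgG library of iOL was also made; it is not analysed here on its own. Peaks were 205 bp wide in OPC and 209 bp in the iOL list of 6704 peaks, on rat build rn6. No source used here gives read totals, so depth is unknown. Intervals are exact binomial 95% intervals for counting error alone. Clustered peaks that neighbour each other are not independent, so all intervals given for clustered peaks are too narrow. A stage has 1 library and hence no replicate error, and no difference between stages or between groups of peaks was tested. Peak lists carry no expression values, so the labelled cell type was not checked against markers.

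Seh1 is a subunit of the Nup107-160 (Y) complex, which builds the scaffold of the nuclear pore, and of the GATOR2 complex, which acts upstream of mTORC1. Some nucleoporins also contact chromatin, and their contacts have been described at enhancers, promoters and gene clusters. Oligodendrocyte progenitors divide under PDGF and differentiate into myelinating cells when growth factors are withdrawn and thyroid hormone is present.

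Genome sequence of build rn6 was not used here, so no peak sequence is printed. The promoters below, from RefSeq on build GRCr8, run from 250 bases before to 50 after the gene's start. They are the 3 clustered promoter peaks closest to a transcription start site (TSS) with an entry in that table, and are shown because the OPC peak centre lay within 30 bp of the start. Capitals mark CG dinucleotides.
Srp19 promoter, chr18:26205638-26205937, plus strand: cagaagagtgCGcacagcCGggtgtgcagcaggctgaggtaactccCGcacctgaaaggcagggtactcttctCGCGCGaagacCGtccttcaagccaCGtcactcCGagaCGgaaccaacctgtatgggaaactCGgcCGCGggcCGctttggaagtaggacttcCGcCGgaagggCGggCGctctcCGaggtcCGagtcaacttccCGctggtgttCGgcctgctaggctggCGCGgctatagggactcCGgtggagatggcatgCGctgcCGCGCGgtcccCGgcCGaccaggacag
Gpr146 promoter, chr12:20380962-20381261, minus strand: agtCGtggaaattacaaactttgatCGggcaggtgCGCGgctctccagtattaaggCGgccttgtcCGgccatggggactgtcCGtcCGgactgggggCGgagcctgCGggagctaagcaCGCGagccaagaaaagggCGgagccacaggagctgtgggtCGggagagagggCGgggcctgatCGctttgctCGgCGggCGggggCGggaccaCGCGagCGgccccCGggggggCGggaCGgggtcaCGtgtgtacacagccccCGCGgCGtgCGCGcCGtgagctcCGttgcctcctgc
Lhfpl4 promoter, chr4:147895721-147896020, minus strand: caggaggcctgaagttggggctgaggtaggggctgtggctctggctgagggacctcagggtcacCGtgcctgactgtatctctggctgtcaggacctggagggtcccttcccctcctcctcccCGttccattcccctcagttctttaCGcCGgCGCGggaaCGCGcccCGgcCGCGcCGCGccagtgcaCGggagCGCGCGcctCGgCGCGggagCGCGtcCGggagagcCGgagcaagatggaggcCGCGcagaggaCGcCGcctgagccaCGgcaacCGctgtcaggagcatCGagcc

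These 3 windows of 300 bases hold 31, 34 and 31 CG dinucleotides, with 65.7%, 70.0% and 70.7% G or C. Of the 48 genes with a clustered promoter peak, 33 had an entry, with a median of 26 CG dinucleotides. Genes whose promoter peak was not clustered had a median of 25 over 249 entries, and all 27457 promoters of the table had a median of 7. So the CG content of these promoters was close to that at other promoter peaks, and both were above the table as a whole. The letters CAGCTG, an E-box that reads the same on both strands, were in 4 of the 33 (12.1%). They were in 36 of the 249 at other promoter peaks (14.5%) and in 15.1% of all promoters of that length. None of the 3 promoters printed holds it.

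Clustered peaks were spread over many short groups rather than a few long ones. Chaining retained peaks whose neighbouring centres lay at most 50 kb apart gave 322 runs with at least 1 clustered peak. These runs held 1120 peaks, of which 278 were end peaks with fewer than 2 neighbours of their own. A run of 3 peaks was the usual form (217 runs), 75 runs had 4 peaks and 30 had 5 or more. Runs spanned a median of 52.9 kb (1.49 to 197.6 kb). Consecutive centres within runs lay a median of 21.2 kb apart (quartiles 11091 and 34431 bp), and 89 of 798 such steps (11.2%) were under 5 kb. The closest pairs were 386 bp apart at the start of Grid1, a glutamate receptor gene, and 398 bp apart near Mpped2. At Grid1, 1 peak was in the promoter class at -134 bp from the TSS and 1 in intron 1 at 252 bp. In 205 of the 322 runs (63.7%) all clustered peaks had the same nearest gene. These 205 include the 95 runs that hold only 1 clustered peak, where this is so by construction.

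**Figure D1:**
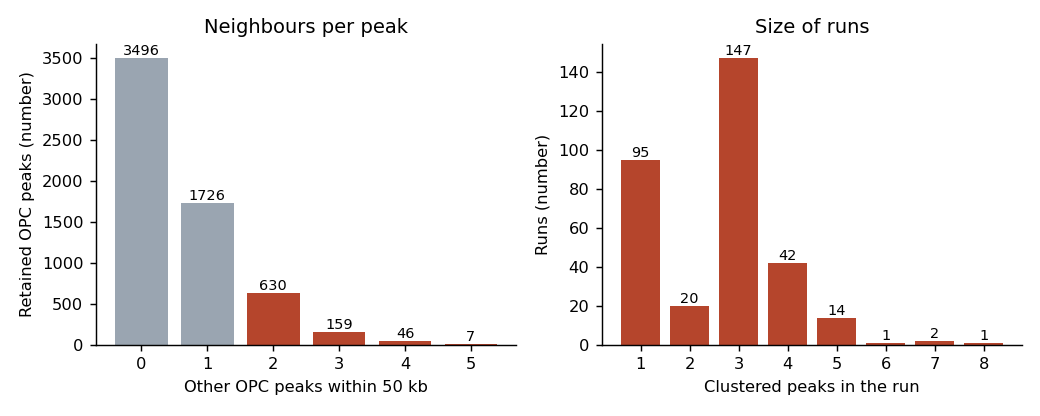
Left, number of retained OPC peaks by the count of other OPC peaks within 50 kb (red: clustered); right, number of runs by the clustered peaks they hold. Peaks with no neighbour number 3496 and those with 5 number 7; runs of 3 clustered peaks are the tallest bar on the right with 147.

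The rule's limit of 50 kb cut through a continuous range. The clustered peaks nearest to it were a pair near Ptpn1, each with its second-nearest centre 49987 bp away, and 1 near Borcs6 at 49850 bp. Just outside were peaks near Tfeb (50005 bp), Airim (50018 bp) and Lmo2 (50038 bp).

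Of the 207 runs with 3 or more clustered peaks, 33 lay with all of them in a single annotated transcript: in 18 runs all were in introns and in 3 runs all were in exons. The exon runs were at Nf1, Lmna and Ssc5d. Nf1 encodes neurofibromin, which switches off RAS signalling. Its run lay on chromosome 10 (66781468 to 66812451) and held 6 clustered peaks in 31.0 kb, in exons 20, 22, 25, 26, 30 and 35 of 61, with scores in that order of 8.94, 8.30, 10.9, 8.30, 13.4 and 10.2. The score is the caller's value per peak in the authors' deposited table, whose header gives no definition, and its median over retained peaks was 7.66. All 6 Nf1 scores were therefore above that median. Another 2 peaks lay in exons 40 and 42 of Nf1, with 1 neighbour each. In all, this annotated Nf1 transcript had 8 exon peaks and 0 intron peaks, repeats included. Intron peaks annotated to any other transcript of the gene were not counted. The peak lists hold no reads, so the origin of the reads under these exon peaks, genomic DNA or spliced sequence, was not tested, and their scores are given with that limit. The deposited table names Omg as the nearest gene of the 6, because Omg, a myelin glycoprotein gene, lies inside an Nf1 intron and its TSS is the closer one, 36.0 to 66.8 kb away.

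Lmna, the gene of lamins A and C of the nuclear lamina, had peaks in exons 1, 7 and 11 of 12 with scores of 14.7, 11.5 and 10.2. Ssc5d, a scavenger receptor gene, had them in exons 7, 10 and 14 of 14 with scores of 7.02, 10.9 and 8.30. Fhl1, a LIM domain gene on chromosome X, had 2 in exons 4 and 5 of 6, 541 bp apart (9.58 and 10.9). The run at Fhl1 was not all exon peaks, as it also held 1 clustered intron peak (7.66).

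Several exon peaks in 1 transcript were uncommon. Of 586 transcripts with a retained exon peak, 22 had 2 or more and 4 had 3 or more, Nf1, Lmna and Ssc5d among them. The 12 clustered exon peaks of these 3 genes had a median score of 10.2 (7.02 to 14.7), the other 111 clustered exon peaks 7.66 and the 495 exon peaks outside clusters 7.66. None of the 12 had an iOL centre within 50 kb, against 48 of the other 111 and 38.3% of all retained peaks. The 12 lay in 3 runs whose peaks share neighbours, so they are not independent. The Nf1 peaks outside its run, in exons 40 and 42, each had 2 iOL centres within 50 kb. The 3 genes were picked for their exon counts, so these values are a description.

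The 3 largest runs mixed classes. The run with the most clustered peaks, 8, lay on chromosome 20 (7149120 to 7346726, 197.6 kb) from Smim29 to Spdef, an ETS factor gene. It took in introns of Nudt3 and of Pacsin1, which acts in endocytosis, with scores from 7.02 to 8.94. On chromosome 3 (2584323 to 2742455) 7 clustered peaks ran from Sapcd2 to C8g, including the promoter of Fut7 and intron 1 of Ptgds, the prostaglandin D synthase gene. Their scores were 7.02 to 7.66. On chromosome 10 (13687743 to 13880163) 7 more ran from Abca17 to Traf7, with one 97 bp from the TSS of Mlst8, a subunit of the mTOR complexes, one in exon 1 of Pgp and one in intron 1 of Caskin1. These 3 runs crossed 5, 6 and 7 nearest genes.

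Runs of 5 were found within or beside individual genes. All 5 peaks of the run at Nfasc, the gene of neurofascin, which acts at nodes and paranodes of myelinated axons, lay in introns 2, 2, 2, 3 and 7 of 29, in 32.1 kb on chromosome 13 (49403419 to 49435526). Their scores were 8.94, 7.02, 7.02, 7.02 and 7.66 in that order of introns. Near Sptb, a spectrin gene, 3 of the peaks were intergenic, 1 in exon 26 and 1 in intron 22. Near Hjv, the hemojuvelin gene, all 5 were intergenic at -16.96 to -59.6 kb, with scores of 8.94, 12.1, 8.94, 11.5 and 8.94, none below the median of retained peaks, and 2 carried the CpG island label. All 5 between Dpp8 and Parp16 on chromosome 8 were intergenic too (7.02 to 8.94).

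The run from Polg, the mitochondrial DNA polymerase gene, to Mir3597-3 on chromosome 1 (141188937 to 141255771) held the highest score of any clustered peak, 21.7 at -1.21 kb from the TSS of Polg. Its other scores were 7.02, 7.02, 9.58 and 6.38. Another clustered peak lay 38 bp from the start of Mir3597-1 on chromosome 2 and in the promoter class of Mir9-1 (187582757 to 187582961, score 7.02). In RefSeq on GRCr8 the hairpins of Mir3597-1 and Mir3597-3 lie on the minus strand and cover all 89 and 90 bases of the Mir9-1 and Mir9-3 hairpins on the plus strand. Mir9 is a microRNA family abundant in neural progenitors. The mature forms are shown because both loci stood in clusters, with the seed (bases 2 to 8) in capitals; the 2 seeds differ.
rno-miR-9a-5p: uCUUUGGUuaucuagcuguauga
rno-miR-9b-5p: uUCGGUUAucuagcuuuau

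**Figure D2:**
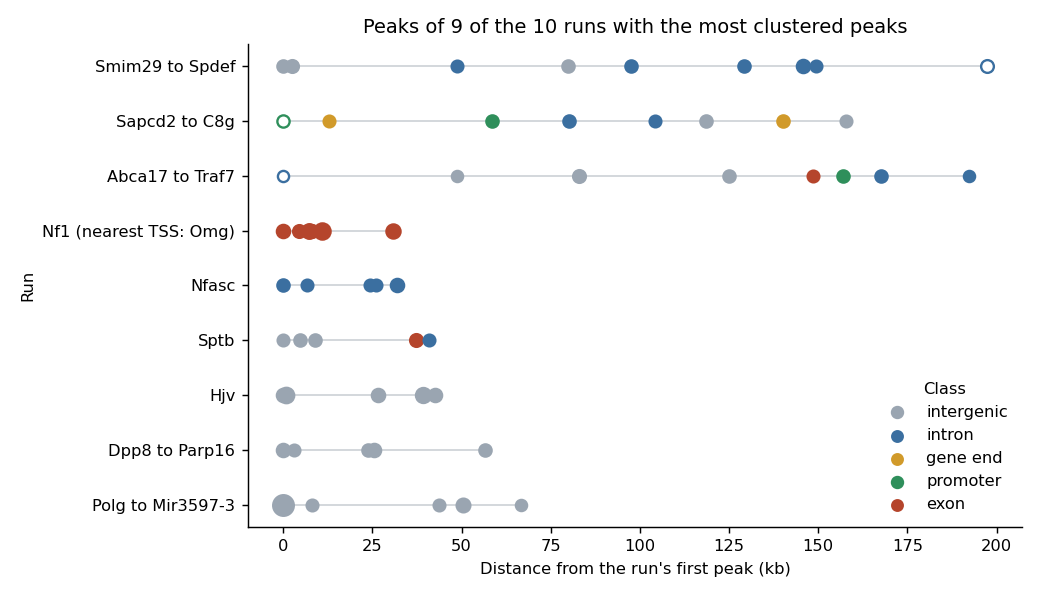
Each row is a run, for 9 of the 10 runs with the most clustered peaks; the x axis is the distance in kb from its first peak, colour gives the annotated class, area scales with the score and open circles are peaks of the run that are not clustered. The Nf1 row is all exon peaks within 31.0 kb, and the first 3 rows mix classes over 158.1 to 197.6 kb.

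By nearest gene, Omg (the Nf1 exons) had 6 clustered peaks and Cdca7, Kifc3, Nfasc, Hjv, Mn1, Psapl1 and Sptb had 5 each. The 5 of Psapl1 all lay in introns 3 and 4 of Sorcs2, a sorting receptor gene, with scores of 6.38 to 7.66. Those of Cdca7, a cell cycle gene, surrounded it from -44.3 to 23.3 kb (6.38 to 7.66). Mn1 had 3 peaks at 209.1 to 233.5 kb and 2 at -19.4 and -25.7 kb, in separate runs. Kifc3, a kinesin gene, had 4 intergenic peaks and 1 in exon 8 of 18, and the exon peak scored highest (10.2). Foxe1, a forkhead factor gene, had 4, one of them 125 bp into its only exon. Introns of Sorcs2 and Nfasc held 5 clustered peaks each, and those of the calcium channel gene Cacna1b, Cmip and Mylk held 4.

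Scores of clustered peaks were close to those of other retained peaks. Their median was 7.66 (quartiles 7.02 and 8.30, range 5.75 to 21.7), as it was for peaks with 1 neighbour, and it was 7.02 for peaks with none. Scores above 10 were held by 44 of the 842 (5.23%, 3.82 to 6.95%), by 4.98% of peaks with 1 neighbour and by 3.63% of peaks with no neighbour (3.04 to 4.31%). The share of all retained peaks was 4.24%, inside the interval of the clustered peaks. Focus ratios, a fraction the caller reports per peak, had medians of 0.765 in clustered peaks, 0.769 with 1 neighbour and 0.778 with none. After the Polg peak the highest clustered scores were 19.8 at a small RNA gene on chromosome 15, 16.6 at -1.50 kb from Hes7, a Notch target of the segmentation clock, and 14.7 in intron 2 of Pdgfrl. Then followed 14.7 in exon 1 of Lmna. A score of 14.0 was held by a peak in intron 6 of Smyd2, a methyltransferase gene, and by one at -86.2 kb from Mgat4a. Next came Nf1 exon 30 (13.4) and the promoter of Mettl26 (12.8).

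Clustered peaks lay closer to genes than peaks with no neighbour, but no more often at promoters. Clustered peaks had a median TSS distance of 15.9 kb (95% interval of the median 13.9 to 17.5 kb), peaks with 1 neighbour 20.6 kb and those with none 32.3 kb (30.1 to 34.7 kb). Distances of 100 kb or more were found for 7.60% of clustered peaks (5.90 to 9.60%) and for 24.3% of those without a neighbour (22.8 to 25.7%). Promoters held 48 clustered peaks, 5.70% (4.23 to 7.49%), where all retained peaks gave 6.02% and those without a neighbour 6.35%. The CpG island label, which the annotation gives only between genes or in introns, was carried by 6.77% of clustered peaks (5.17 to 8.68%), by 8.90% of peaks without a neighbour (7.97 to 9.89%) and by 8.05% of all retained peaks. Within 19 of the 21 chromosomes the median distance was shorter for clustered peaks than for peaks with no neighbour.

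Exons held 123 clustered peaks, 14.6% (12.3 to 17.2%), beside 10.4% of peaks with 1 neighbour (8.97 to 11.9%), 9.04% of those with none (8.11 to 10.0%) and 10.2% of all retained peaks. The higher share rested largely on chromosomes 1 and 10, which held 58 of the 123 clustered exon peaks. There, exons held 28.8% of 111 and 25.2% of 103 clustered peaks, against 9.21% and 7.97% of peaks with no neighbour. On all other chromosomes together the shares were 10.4% (8.08 to 13.0%, 65 of 628) and 9.10% (8.08 to 10.2%). These intervals overlap, which is a description and not a test. The clustered share was the higher one in 13 of 21 chromosomes. Seen from the classes, 19.9% of exon peaks were clustered (16.8 to 23.3%), 14.9% of intron peaks, 13.2% of promoter peaks and 345 of 2880 intergenic peaks, against 13.9% of all, the exon value again including chromosomes 1 and 10. The repeat filter removed only intron and intergenic peaks; with repeats kept, the exon shares were 10.9% of clustered peaks and 5.48% of those with none.

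**Figure D3:**
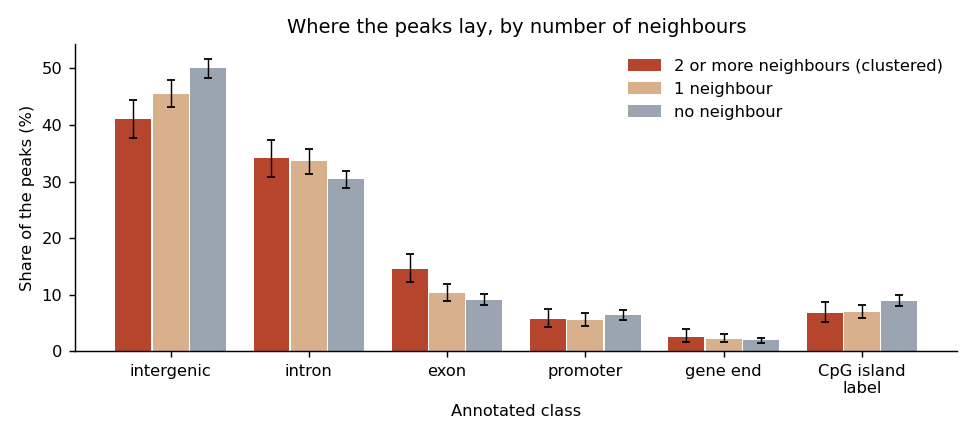
Share of peaks in each annotated class (y axis, %) for clustered peaks, peaks with 1 neighbour and peaks with none; error bars are exact binomial 95% intervals. Exons take 14.6%, 10.4% and 9.04%, intergenic sequence 41.0%, 45.5% and 50.1%, and the promoter intervals overlap.

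Among clustered promoter peaks, those nearest to a TSS were at Sh2d3c (0 bp, score 6.38), Srp19, a protein of the signal recognition particle (13 bp, 8.30), and Gpr146, an orphan receptor (-19 bp, 8.30). Next came Lhfpl4, which acts at inhibitory synapses (-27 bp, 7.02), Cpne2 (-29 bp, 8.94), the splicing factor gene Hnrnpm (29 bp, 7.66) and Aire, a thymic regulator of self-antigens (-30 bp, 7.66). Mir3597-1 (38 bp), the ubiquitin ligase gene Rnf126 (44 bp, 8.30) and Sned1 (50 bp, 8.94) followed. All of these scores lay between 6.38 and 8.94, close to the median.

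The iOL list was not used by the rule, so it shows what lay in the same neighbourhoods at the other stage. An iOL centre lay within 50 kb of 382 clustered peaks, 45.4% (42.0 to 48.8%), of 45.9% of peaks with 1 neighbour (43.6 to 48.3%) and of 32.8% of those with none (31.2 to 34.3%), against 38.3% of all retained peaks. At least 2 iOL centres lay that close to 15.3% of clustered peaks (13.0 to 17.9%), to 13.4% of peaks with 1 neighbour (11.8 to 15.1%) and to 7.09% of peaks with none. The share of all retained peaks was 10.0%. Clustered peaks of 1 run share neighbours, so they are not independent and these intervals are too narrow. Runs widened by 50 kb on either side covered 50.2 Mb, 1.81% of the assembly's length as taken from the last peak of each chromosome. They held 317 iOL peaks, 6.32 per Mb, against 2.33 per Mb elsewhere, a ratio of 2.71. Elsewhere here means all the remaining length, whether or not OPC peaks lay near. The ratio was above 1 in 19 of 21 chromosomes, with a median of 2.02, and 0 iOL peaks lay in the spans of chromosomes 11 and X. In 15 of 21 chromosomes clustered peaks had an iOL centre within 50 kb more often than peaks with no neighbour.

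The same positions were seldom called at both stages. Only 6 clustered peaks, 0.713% (0.262 to 1.55%), shared 1 bp or more with an iOL peak, where 1.09% of all retained peaks did and peaks with no neighbour gave 1.09% as well (0.770 to 1.49%). One stood at a small RNA gene on chromosome 15 (27739078 to 27739282, score 19.8, overlap 103 bp), named Rmrp in the authors' deposited table and Rpph1, the RNA of RNase P, under the same gene ID in RefSeq, beside Parp2. Of the rest, 4 were in an intron of Dgat2, a triglyceride synthesis gene, near Uvrag (7.66, 193 bp), in exon 1 of Ankrd13d (7.02, 49 bp), at the promoter of Fam83f (6.38, 53 bp) and between genes near Mir466c (5.75, 184 bp). The 6 belonged to 6 different runs. Scores of these 4 were at most 7.66.

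By distance from a clustered peak, iOL peaks had a density of 7.72 per Mb within 1 kb (13 pairs), 7.48 at 10 to 20 kb and 5.40 at 100 to 200 kb. Around peaks with no neighbour they were 9.58 per Mb within 1 kb (67 pairs) and 4.51 at 1 to 5 kb, and 3.90 at 100 to 200 kb. Around peaks with 1 neighbour they were 14.5 per Mb within 1 kb (50 pairs) and 5.03 at 100 to 200 kb. At 20 to 50 kb the densities were 6.02 around clustered peaks, 6.08 around peaks with 1 neighbour and 3.86 around peaks with none. OPC peaks annotated to repeats, which the rule also did not use, differed less between the groups. One lay within 50 kb of 12.9% of clustered peaks (10.8 to 15.4%), of 15.2% of peaks with 1 neighbour, of 12.5% of those with none and of 13.3% of all retained peaks. Per Mb they were 1.57 inside the widened spans and 1.08 elsewhere, a ratio of 1.46.

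**Figure D4:**
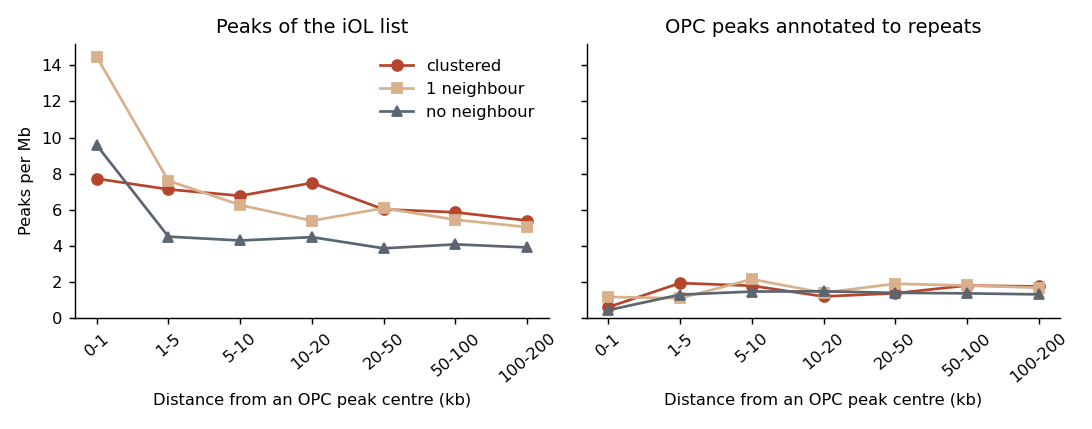
Density of iOL peaks (left) and of repeat-annotated OPC peaks (right), in peaks per Mb, by distance in kb from the centres of clustered peaks, peaks with 1 neighbour and peaks with none; a peak near several centres counts for each. From 1 to 200 kb the clustered line on the left stays above the line for no neighbour (5.40 against 3.90 at 100 to 200 kb), and the lines on the right lie between 0.429 and 2.14.

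Chromosomes differed in how many of their retained peaks were clustered. The share was 22.3% on chromosome 12 (60 of 269, 17.5 to 27.8%), 22.2% on chromosome 19, 20.2% on chromosome 10 (103 of 511) and 19.6% on chromosome 20. It was lowest on chromosomes 18 (5.95%, 10 of 168), 17 (6.70%) and 2 (6.94%, 24 of 346). Chromosome X had 3 of 31. Chromosomes 12, 10, 20 and 19 also had the most retained peaks per Mb, 5.10, 4.54, 3.90 and 3.73, against 0.194 on X. Over the 21 chromosomes the 2 measures had Pearson's r of 0.789 and Spearman's rho of 0.722, a description, since a denser list gives more neighbours by construction. How many clusters random placement at these densities would give was not tested.

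**Figure D5:**
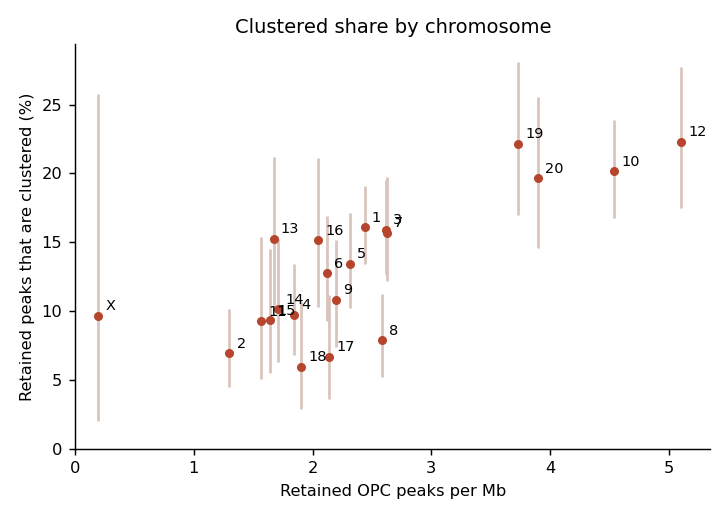
Share of retained OPC peaks that are clustered (y axis, %, with exact binomial 95% intervals) against retained OPC peaks per Mb (x axis), 1 point per chromosome. Chromosomes 10, 12, 19 and 20 stand at upper right with 19.6 to 22.3%, and X at the left with 3 of 31 peaks.

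Few genes of the lists examined were nearest to a clustered peak. Over 12 gene lists, 158 genes were nearest to a retained peak and 14 of these (8.86%) to a clustered one, while of all 4354 such genes 479 had a clustered peak (11.0%). Of 12 oligodendrocyte lineage genes with a retained peak, 3 had a clustered one. Sox9, a glial fate regulator, had 3 clustered peaks, in its exon 3 at 2.67 kb and at 9.86 and 43.2 kb, with scores of 7.02, 7.66 and 7.02 and no iOL peak within 50 kb. Myrf, the myelin regulator, and Lingo1, an inhibitor of differentiation, had 1 each, at -6.91 kb in the last exon of Dagla and at -43.1 kb. Nfasc was the 1 of 8 myelin genes.

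Among signalling genes, 3 of 22 Wnt pathway genes had clustered peaks. Wnt7b, a ligand that acts between neural cells and vessels, had 4, at 1.3 and 13.0 kb in intron 3, at 31.5 kb in intron 4 and at 48.7 kb downstream, with scores of 9.58, 7.66, 7.02 and 7.02. All 4 had an iOL centre within 50 kb, as did 45.4% of clustered peaks. They lay in the same run and share neighbours, so they are not independent. The ligand gene Wnt11 had 2, 533 bp apart at -23.3 and -23.8 kb (9.58 and 8.94), and the Wnt antagonist gene Nkd1 had 1 at -73.8 kb. Pdgfa, the growth factor that drives OPC division, was the 1 of 23 growth factor and guidance genes, with 4 peaks. They lay at 13.1 kb in intron 6 (8.30), at -18.1 kb (9.58), in Prkar1b at -30.5 kb (7.66) and, in another run, at 67.0 kb (7.66), all with an iOL centre within 50 kb. Id2, an inhibitor of basic helix-loop-helix factors, was the 1 of 21 BMP, TGF-beta and Notch genes, with 3 intergenic peaks at -160.9 to -173.8 kb (7.02 to 7.66).

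Elsewhere, 2 of 33 homeobox and T-box genes had a clustered peak, Pax7 at -47.1 kb and Tbx3 at -93.3 kb. The astrocyte receptor gene Fgfr3 was 1 of 8 in its list, with peaks at 1.17 and 9.18 kb in introns 1 and 6 and at 21.5 kb in exon 13 of Letm1 (7.66, 8.30 and 7.66). Laptm5 was 1 of 5 microglia genes (-24.6 kb) and the Polycomb gene Cbx8 1 of 8 chromatin genes (5.28 kb, in an intron of Ccdc40). Neuron, vascular and ribosomal protein lists had 0 of 6, 0 of 5 and 0 of 7. With so few genes per list the shares are imprecise, and nothing particular to a list was shown.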

How the data were processed

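Seh1 ChIP-seq peak lists of OPC and iOL (1 library each) were analysed as the authors deposited them: positions on rn6 without read counts. Per the submitters' processing notes Bowtie2 and HOMER were used, with builds rn6 and hg18 named and no role given; no source here gives thresholds, duplicate handling or versions. The authors' deposited annotation table, recorded under iOL, gives per its header a peak file of Seh1 in OPC against IgG in iOL, and its 9084 intervals all equal OPC intervals; the OPC peaks with no row all lay on other sequences than chromosomes 1 to 20 and X. From this deposited table came the caller's score, the focus ratio (a fraction), the class and the distance to a TSS.

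Neighbours were counted between peak centres (Python 3.11.15, pandas 2.3.3, scipy 1.17.1), and the counting was tested on simulated data. Genes were named by ID and transcript accession from RefSeq GRCr8. The 41 OPC peaks on other sequences were not used. Groups of peaks were set side by side with exact intervals, without tests. The members and gene lists were chosen with earlier results of these data known. Named were the 10 runs with the most clustered peaks, the 10 highest scores, all clustered peaks shared with iOL, the 10 promoter peaks nearest to a TSS, the 10 genes with the most clustered peaks, and listed genes (up to 6 a list); a few of these items are not reported here. The sets of Nf1, Lmna, Ssc5d and Fhl1 exon peaks, the closest pairs, the peaks next to the 50 kb limit and the Mir9 overlap, where outside that rule, were chosen after their values were seen. Alternatives changed the window, the number of neighbours, the repeat filter, the score limit, the overlap and the promoter definition.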

Additional observations from a re-analysis of the deposited data

How the results depend on the processing

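No paired analysis was possible because each stage has 1 library and no result comes from a test. In the 5 alternatives that changed which peaks were clustered, these had an iOL centre within 50 kb more often than peaks with no neighbour. They also lay in exons more often, lay closer to a TSS and overlapped iOL peaks less often. None of these differences was tested, and the alternatives draw on the same peak list, so they are not independent. The overlap shares rest on few peaks. In the main setting 6 of 842 overlapped, and the interval (0.262 to 1.55%) includes the 1.09% of peaks with no neighbour. Leaving out 7SL and 7SK peaks changed no clustered peak. Without chromosomes 1 and 10 the exon share was 10.4% (9.10% for peaks with no neighbour), while 44.4% had an iOL centre within 50 kb and the median TSS distance was 17.0 kb. The number of clustered peaks and of runs followed the rule: 296 and 125 with 25 kb, 1936 and 562 with 100 kb, 212 and 79 with 3 or more other peaks, 1441 and 522 with repeats kept, and 243 and 95 from retained peaks scoring at or above a median. That median was taken over all OPC peaks with a score, repeats included. Listed genes with a clustered peak numbered 4, 40, 3, 26 and 6 under these settings. With 3 or more other peaks, 0.0% of the 212 overlapped an iOL peak and 17.0% had a repeat-annotated OPC peak within 50 kb; with the score limit the latter was 18.1%. The exon share was 10.9% with repeats kept and 19.8% with the score limit, and the median distance to a TSS 18.4 and 12.4 kb. The score limit raised the median score to 8.30 by construction. The iOL density inside runs was 7.59 per Mb with 25 kb and 7.21 without widening, and 19.1% of clustered peaks lay within 3000 bp of a TSS. Where not stated, the cause was not tested. Of 77 alternative values, the other 50 stayed within the main value's interval or, for counts, within 1.5 times. The share near repeat-annotated peaks was not run with repeats kept. Exon shares and values without the 10 largest runs or without chromosomes 1 and 10 were added after seeing the data. Unknown depth limits every count of peaks called.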
